A study of Danio rerio with 45 samples.

Results

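The genes dnmt1 and uhrf1 encode the core of the machinery that copies DNA methylation onto new strands. Every probe whose transcript accession mapped to either symbol was taken and shown apart. This gave 5 probes for dnmt1 and 4 probes for uhrf1, 2 genes of 14212 named on the array. The samples were pools of 20 whole zebrafish embryos, and each pool was hybridised alone (Cy3, 1 colour) to an Agilent zebrafish array, giving 45 arrays. There were 3 genotypes, wild type (WT), dnmt3aa-/- and dnmt3bb.2-/-, each at 5 stages: 1-2 cell, shield (early gastrula), 5-somite, 1 day post-fertilisation (dpf) and 2 dpf. Each of the 15 groups held 3 replicates from separate experiments. The study describes its dnmt3aa-/- embryos as maternal-zygotic and states that maternal Dnmt3aa function was absent from them. The source of the dnmt3bb.2-/- embryos is not given in the sources used here. Both mutated genes encode de novo methyltransferases, which place methyl groups on unmethylated DNA.

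When DNA is replicated, a methylated CpG becomes hemimethylated: the old strand carries the mark and the new one does not. Uhrf1 binds hemimethylated CpG, ubiquitinates histone H3 and so recruits Dnmt1, the methyltransferase that restores the mark on the new strand. Both proteins act in S phase, and loss of either gene in zebrafish lowers DNA methylation and disturbs the growth of organs such as the lens and liver. At the 1-2 cell stage the embryo has not begun to transcribe its own genome, so the RNA present is maternal.

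All levels below are log2 signal scores, that is log2 of the authors' scaled fluorescence intensity, and a difference of 1 is a 2-fold change. Levels of different probes were not compared, because probes differ in brightness. Differences were tested with limma's moderated test, and a difference was called at a Benjamini-Hochberg adjusted p of at most 0.01 over all probes tested. All adjusted p-values below come from these limma fits. The whole-series checks gave the following. Between 62.3 and 84.5% of features were well above background per array. Of the 20 stage markers matched, each read by 1 probe, 18 were highest at their labelled stage, the exceptions being myod1 and tbx16. Each had its maximum at the same stage in all 3 genotypes, which does not show that levels matched within a stage. At shield pax2a differed from WT by -3.15 in dnmt3aa-/- and -2.86 in dnmt3bb.2-/-. Only 1 of 3 dnmt3aa-/- arrays and 0 of 3 dnmt3bb.2-/- arrays were well above background there, so these sizes are uncertain. At 1-2 cell gsc was 2.13 higher in dnmt3aa-/- and egr2b 3.18 higher in dnmt3bb.2-/-, and all of these were called. The 6 late markers were listed for 1 dpf and 2 dpf together and all were highest at 2 dpf, so none checks 1 dpf alone. The 45 arrays lay on 12 slides read on 3 scan days. All dnmt3aa-/- arrays were read on a day of their own. Scan day and genotype thus cannot be told apart where dnmt3aa-/- is compared with WT or with dnmt3bb.2-/-. WT and dnmt3bb.2-/- arrays of a stage shared a day, and at every stage but 5-somite 1 slide held arrays of both. Replicate spread was wider in dnmt3aa-/- (median SD over probes 0.099 to 0.251 by stage) than in WT (0.047 to 0.132) at every stage. It was wider than in dnmt3bb.2-/- (0.063 to 0.161) at shield, 5-somite and 1 dpf, narrower at 1-2 cell (0.099 against 0.161) and alike at 2 dpf (0.144 against 0.143). In dnmt3bb.2-/- the dnmt3bb.2 probe was lower at every stage, by 0.80 to 2.68 log2. In dnmt3aa-/- the dnmt3aa probe was 0.54 to 0.95 higher at the first 4 stages and 0.79 higher, uncalled, at 2 dpf. Where these probes lie relative to the lesions is not given in the sources used here.

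In WT, dnmt1 signal was highest in the 1-2 cell embryo, fell sharply by shield, partly recovered by the 5-somite stage and fell again between 1 and 2 dpf. The pattern is shown by A_15_P461830, the dnmt1 probe with the highest mean level over the arrays. It read 17.49, 17.46 and 17.46 in the 3 arrays at 1-2 cell and 14.38, 14.47 and 14.42 at shield. It then read 15.024, 15.004 and 15.017 at 5-somite. The 1 dpf arrays read 15.12, 15.08 and 15.11, and those of 2 dpf 13.62, 13.78 and 13.50. Each stage's arrays lay apart from those of the stage before. All 5 dnmt1 probes fell from 1-2 cell to shield, by 2.89 to 3.18 log2 (7.42- to 9.05-fold). At this step 84.0% of all probes were called, 47.8% of all as falls, and the median of all probes was -0.32. From shield to 5-somite 4 of the 5 rose, by 0.58 to 1.47, where 78.0% of all probes were called and 45.3% rose. A_15_P344970 differed by -0.21 at this step (adjusted p = 0.029) and was not called. Without WT 2 dpf replicate 3 it passed as a fall (adjusted p = 0.00252). From 5-somite to 1 dpf only A_15_P632541 (0.435, SE 0.11, adjusted p = 0.00247) and A_15_P663091 (0.37, SE 0.08, adjusted p = 0.00139) were called, where 69.6% of all probes were called and 35.5% rose. The first of these calls was lost without WT 1 dpf replicate 1 (adjusted p = 0.0102), and neither was made under 75th percentile scaling. A_15_P666021 (0.16, adjusted p = 0.0569) passed without WT 2 dpf replicate 2 (adjusted p = 0.00882). From 1 to 2 dpf all 5 fell, by 1.47 to 1.65, a step at which 60.3% of all probes were called and 28.7% fell.

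**Figure D1:**
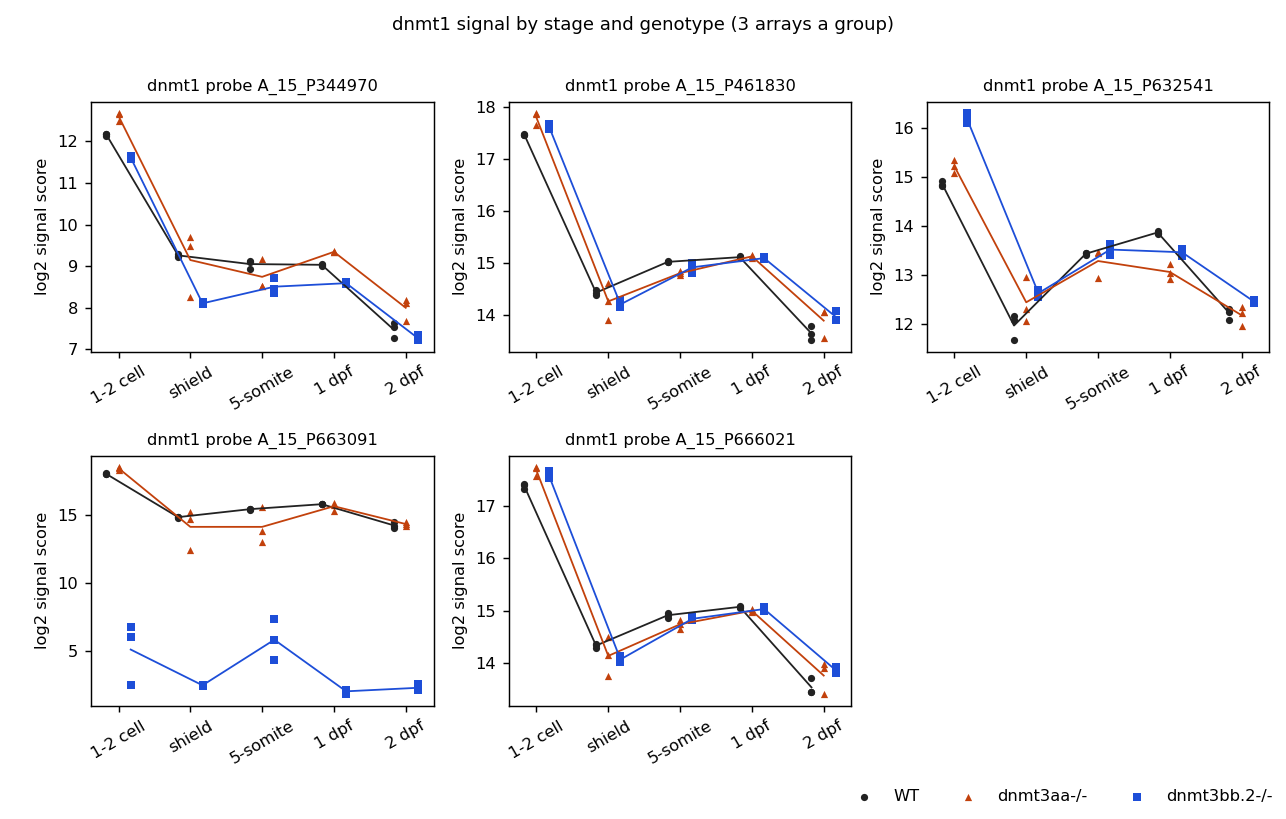
Log2 signal score (y axis, own scale in each panel) of each dnmt1 probe at the 5 stages (x axis), with 1 point per array, colour and shape by genotype, and lines through the means of 3 arrays. All probes but A_15_P663091 stepped down from 1-2 cell to shield in every genotype, and that probe lay near background in dnmt3bb.2-/- while WT read between 14.05 and 18.06.

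The lowest WT stage was 2 dpf for 4 of the dnmt1 probes. For A_15_P632541 it was shield, with readings of 11.67, 12.08 and 12.16 against 12.09, 12.32 and 12.25 at 2 dpf, so the arrays of these stages overlapped. From highest to lowest stage the WT means spanned 2.89 to 4.70 log2. In the order of levels the 5-somite and 1 dpf means of A_15_P461830 were neighbours and did not differ past the threshold (0.09, adjusted p = 0.194). Each array was scaled to the same trimmed mean, so a level is relative to the other RNA on the array and is not an amount per embryo. In whole embryos, fewer expressing cells, less RNA per cell and more RNA of other genes cannot be told apart. WT and dnmt3bb.2-/- arrays of the 5-somite stage were read on a scan day of their own, so for these genotypes that day cannot be told apart from the steps into and out of 5-somite.

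The first and last falls of dnmt1 were also seen in both mutants. In dnmt3aa-/-, whose arrays were read on 1 day, all 5 probes fell from 1-2 cell to shield, by 2.78 to 4.31, where 71.5% of all probes were called and 40.0% fell. From shield to 5-somite only A_15_P632541 rose there (0.84, SE 0.22, adjusted p = 0.00502), although its shield and 5-somite arrays overlapped, with 56.8% of all probes called and 31.8% rising. That call was lost when any 1 of 4 arrays was left out, shield replicates 1 and 2 and 5-somite replicates 1 and 2 (adjusted p up to 0.025). Without shield replicate 3, A_15_P461830 (from 0.54 to 0.72, adjusted p = 0.00305) and A_15_P666021 (from 0.60 to 0.79, adjusted p = 0.00203) passed too, as they did without 2 dpf replicate 3. Without shield replicate 1, A_15_P344970 moved from -0.40 to -0.85 and passed as a fall (adjusted p = 0.00393). From 5-somite to 1 dpf limma called none, against 38.3% of all probes, and 1 of 5 had an unadjusted p under 0.05 (A_15_P663091, adjusted p = 0.0813). From 1 to 2 dpf 4 of 5 fell, by 0.88 to 1.35, against 28.6% of all probes called and 14.4% falling. Of these, the call for A_15_P344970 was lost without any 1 dpf array or 2 dpf replicate 1 or 3 (adjusted p up to 0.0235). That for A_15_P632541 was lost without any array of 1 or 2 dpf or 1-2 cell replicate 2 (adjusted p up to 0.0337). In dnmt3bb.2-/- the 4 probes other than A_15_P663091 fell by 3.44 to 3.58 at the first step, rose by 0.40 to 0.89 at the second and fell by 1.01 to 1.33 at the last. The shares of all probes moving the same way in dnmt3bb.2-/- were 43.7%, 38.9% and 22.0%, of 78.0%, 67.8% and 46.0% called. The rise of A_15_P344970, the smallest, was lost under 75th percentile scaling, under quantile normalization and with all 45 arrays in 1 fit.

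The uhrf1 time course in WT had another shape: 2 of its 4 probes rose by shield and none fell past the threshold with all arrays used. All 4 dropped by the 5-somite stage and dropped again by 2 dpf. The probe with the highest mean level, A_15_P304326, read 14.83, 14.82 and 14.93 at 1-2 cell and 15.17, 15.11 and 15.15 at shield. It read 13.89, 13.88 and 13.88 at 5-somite and 14.04, 14.04 and 14.07 at 1 dpf. The arrays of 2 dpf read 12.35, 12.46 and 12.18. The shield arrays were the highest and the 2 dpf arrays the lowest, and no successive stages overlapped. From 1-2 cell to shield A_15_P304326 rose by 0.28 (SE 0.06, adjusted p = 0.0011) and A_15_P729306 by 0.49 (SE 0.06, adjusted p = 9.83e-06). The other 2 probes differed by -0.22 and -0.16 and were not called, and 36.1% of all probes rose. Without WT 2 dpf replicate 2, A_15_P113230 (-0.22) passed as a fall (adjusted p = 0.00113). The rise of A_15_P304326 depended on the scaling, since under quantile normalization its difference was -2e-04 with an adjusted p of 0.998. From shield to 5-somite all 4 uhrf1 probes fell, by 1.26 to 1.55 log2, where 32.7% of all probes fell. From 5-somite to 1 dpf only A_15_P541062 was called (0.93 higher, SE 0.07, adjusted p = 2.18e-07), where 69.6% of all probes were called and 35.5% rose. A_15_P304326 (0.17, adjusted p = 0.0317) passed as a rise without WT 2 dpf replicate 3 (adjusted p = 0.00368). From 1 to 2 dpf all 4 fell, by 1.32 to 2.01, where 60.3% of all probes were called and 28.7% fell.

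**Figure D2:**
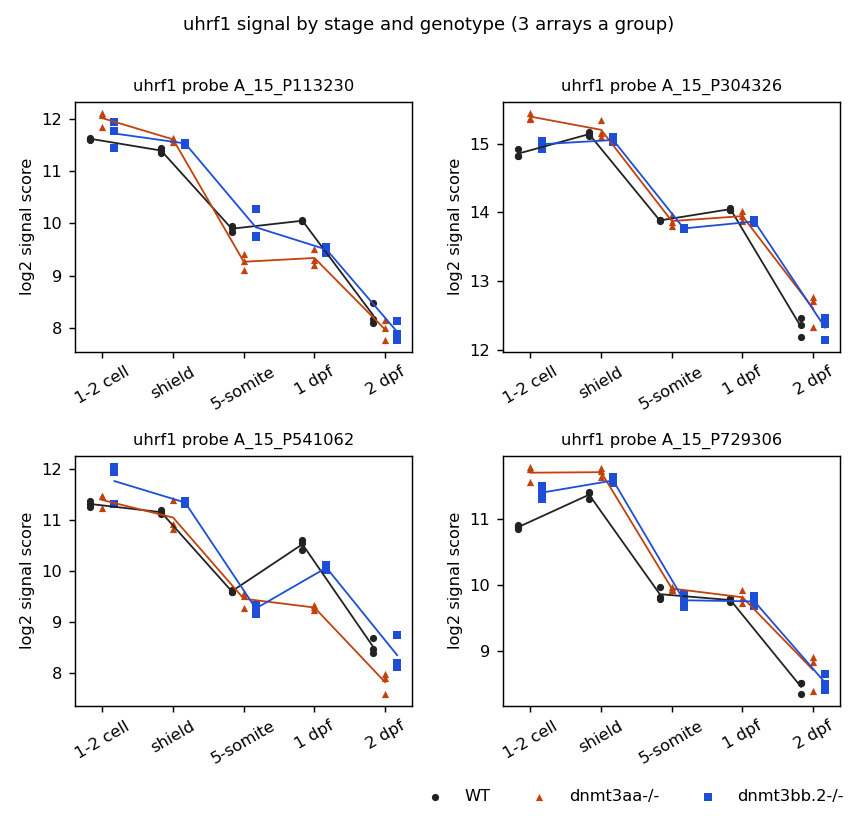
Log2 signal score (y axis, own scale in each panel) of each uhrf1 probe at the 5 stages (x axis), with 1 point per array, colour and shape by genotype, and lines through the means of 3 arrays. All 4 probes dropped from shield to 5-somite and from 1 to 2 dpf in every genotype, and the 1 dpf arrays of A_15_P541062 lay near 10.5 in WT and near 9.3 in dnmt3aa-/-.

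Both later falls of uhrf1 were called for all 4 probes in each mutant too. In dnmt3aa-/- the probes fell by 1.33 to 2.34 from shield to 5-somite and fell by 1.101 to 1.47 from 1 to 2 dpf, against 25.0% and 14.4% of all probes falling. In dnmt3bb.2-/- they fell by 1.29 to 2.08 and by 1.23 to 1.72, against 28.9% and 22.0%. No uhrf1 probe was called between 1-2 cell and shield in either mutant by limma, against 71.5% of all probes in dnmt3aa-/- and 78.0% in dnmt3bb.2-/-. In each mutant 1 of 4 had an unadjusted p under 0.05, with differences of -0.41 (A_15_P113230, dnmt3aa-/-, adjusted p = 0.0152) and -0.42 (A_15_P541062, dnmt3bb.2-/-, adjusted p = 0.0513). Leaving out 1 array let A_15_P541062 pass in both. It moved from -0.34 to -0.52 without dnmt3aa-/- shield replicate 1 (adjusted p = 0.0071) and from -0.42 to -0.65 without dnmt3bb.2-/- 1-2 cell replicate 2 (adjusted p = 0.00192). A_15_P541062 rose from 5-somite to 1 dpf in dnmt3bb.2-/- as in WT (0.80, SE 0.19, adjusted p = 0.00201), with 61.3% of all probes called and 32.0% rising, and differed by -0.17 (adjusted p = 0.402) in dnmt3aa-/-.

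At the 1-2 cell stage, dnmt3aa-/- embryos held more signal for both genes. The uhrf1 probe A_15_P729306 read 10.85, 10.86 and 10.90 in WT and 11.75, 11.78 and 11.55 in dnmt3aa-/-. Every mutant array lay above every WT array, and the difference was 0.82 (SE 0.07, 1.77-fold, adjusted p = 0.000307). A_15_P304326 read 14.83, 14.82 and 14.93 in WT and 15.37, 15.45 and 15.38 in dnmt3aa-/-, which was 0.54 above WT (SE 0.05, 1.45-fold, adjusted p = 0.000354). These 2 calls held with any 1 array left out. A_15_P113230 was 0.39 higher (adjusted p = 0.00731), and A_15_P541062 differed by 0.08 (95% interval -0.14 to 0.29). Of the dnmt1 probes, A_15_P344970 was 0.45 higher (SE 0.07, adjusted p = 0.0021), A_15_P663091 0.42 higher (SE 0.07, adjusted p = 0.00266) and A_15_P632541 0.36 higher (SE 0.08, adjusted p = 0.00947). The other 2, A_15_P461830 and A_15_P666021, differed by 0.33 and 0.30 and just missed the threshold (adjusted p = 0.0112 and 0.0106). In all 5 the groups did not overlap, as in 76.2% of all probes. Of the 9 probes 6 were called, all higher, where 57.3% of all probes were called and 28.5% were higher. None of the dnmt1 calls, nor that of A_15_P113230, survived leaving out any 1 of the 3 WT arrays (adjusted p up to 0.0377). Leaving out dnmt3aa-/- replicate 1 or 2 also removed the calls of A_15_P632541 and A_15_P113230, and replicate 2 that of A_15_P663091. In turn, both uncalled dnmt1 probes passed without dnmt3aa-/- replicate 3 (adjusted p = 0.000466 and 0.00258). Under normexp background correction the median of all probes moved from 0.02 to 0.38 at this stage.

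At later stages the dnmt3aa-/- differences were fewer and of mixed sign. At shield and 2 dpf no member passed limma's adjusted threshold, where 12.3% and 12.6% of all probes did. An unadjusted p under 0.05 was reached by 1 of 9 at shield and 2 of 9 at 2 dpf. The intervals at shield were wide, such as -1.07 to 0.84 for A_15_P344970, whose mutant arrays read 8.25, 9.49 and 9.69. One array, shield replicate 1, was low there and the others lay above all 3 WT arrays. At 5-somite 1 member was called, the uhrf1 probe A_15_P113230, which was 0.63 lower (SE 0.10, adjusted p = 0.00631) with 21.3% of all probes called and 11.5% lower. With slide as a random block that call was lost, but no slide held both genotypes, so slide and genotype cannot be told apart. The call was also lost without any 1 of the 3 WT arrays or of dnmt3aa-/- replicates 1 and 2 (adjusted p up to 0.0338). Without dnmt3aa-/- 5-somite replicate 3, in contrast, 2 dnmt1 probes would pass, A_15_P344970 at -0.53 (adjusted p = 0.00421) and A_15_P663091 at -2.03 (adjusted p = 0.00284).

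The largest dnmt3aa-/- difference of the 9 probes that was called was that of the uhrf1 probe A_15_P541062 at 1 dpf. It read 10.55, 10.61 and 10.42 in WT and 9.32, 9.23 and 9.29 in dnmt3aa-/-. The groups lay far apart, at 1.24 log2 (SE 0.07, 2.37-fold lower in the mutant, adjusted p = 0.000349), and the call held with any 1 array left out. A_15_P113230 read 10.05, 10.07 and 10.04 in WT and 9.21, 9.30 and 9.51 in the mutant, a difference of -0.71 (SE 0.09, adjusted p = 0.00334). The other 2 uhrf1 probes did not share this difference: A_15_P304326 differed by -0.10 (95% interval -0.26 to 0.06) and A_15_P729306 by 0.04 (95% interval -0.13 to 0.22). The dnmt1 probes also disagreed at 1 dpf. A_15_P632541 was 0.81 lower (SE 0.09, adjusted p = 0.00208), A_15_P344970 was 0.31 higher (SE 0.05, adjusted p = 0.00842), and the other 3 differed by 0.02, -0.07 and -0.15 without being called. At this stage 20.8% of all probes were called. Except that of A_15_P541062, each of these 1 dpf calls was lost without any 1 of the 3 WT arrays (adjusted p up to 0.0479), those of A_15_P344970 and A_15_P113230 also without dnmt3aa-/- replicate 2, and that of A_15_P344970 without replicate 1.

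**Figure D3:**
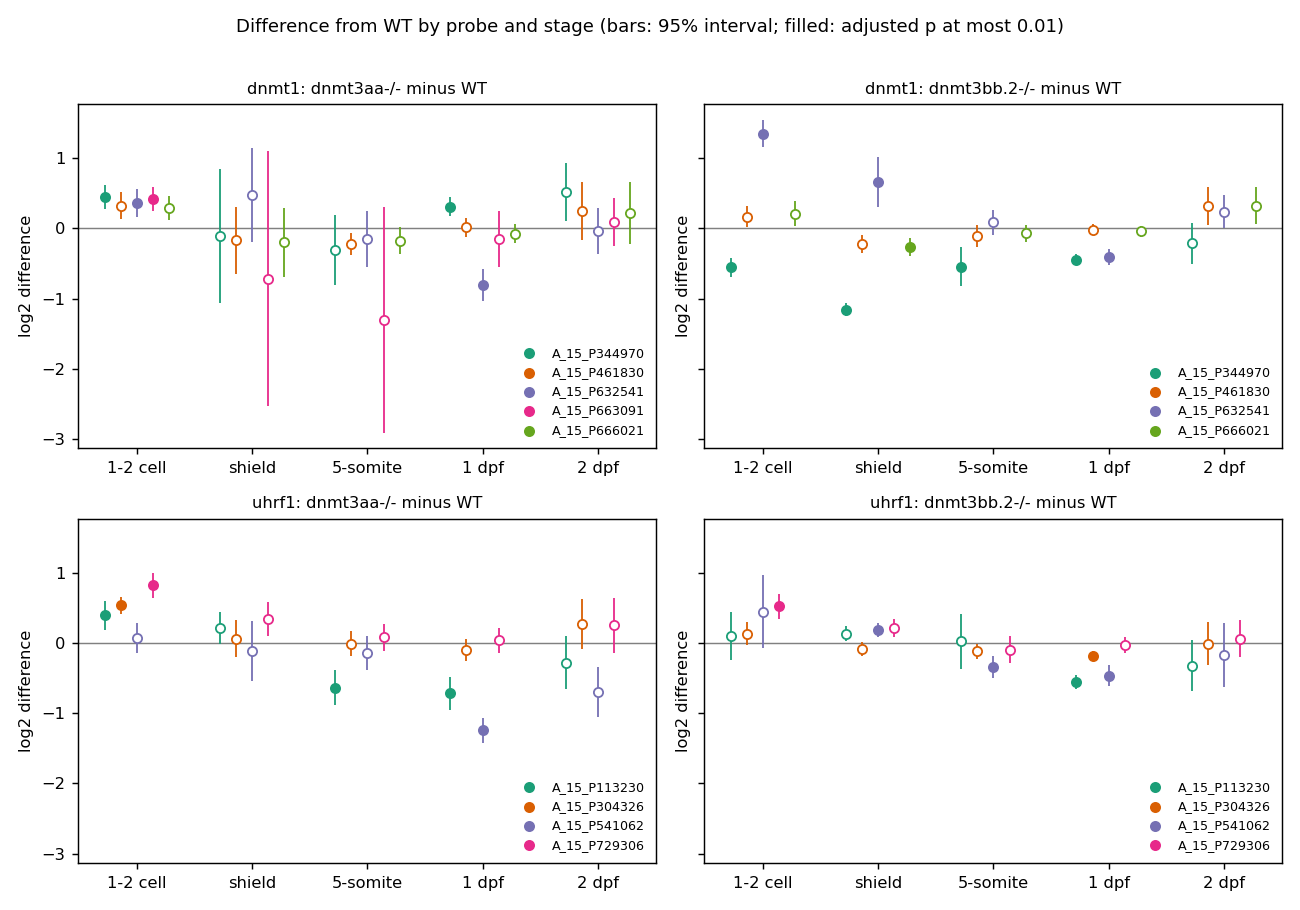
Log2 difference from WT (y axis) by stage (x axis), with 1 point per probe and 95% intervals from limma. Filled points passed an adjusted p of at most 0.01 and open points did not; A_15_P663091 in dnmt3bb.2-/- is left off, since only bounds can be given for it. The dnmt1 probes lay above 0 in dnmt3aa-/- at 1-2 cell, while in dnmt3bb.2-/- A_15_P344970 and A_15_P632541 lay on opposite sides of 0 there.

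In dnmt3bb.2-/- embryos 1 dnmt1 probe lost its signal almost entirely while the other 4 stayed within 1.35 log2 of WT. A_15_P663091 read 14.85, 14.86 and 14.81 in WT at shield and 2.44, 2.49 and 2.48 in dnmt3bb.2-/-. At 1 dpf it read 15.79, 15.79 and 15.80 in WT and 1.80, 2.13 and 2.14 in the mutant. At 2 dpf it read 14.22, 14.46 and 14.05 in WT and 2.54, 2.09 and 2.23 in the mutant. At these 3 stages none of the dnmt3bb.2-/- arrays was well above background, so only bounds can be given. Each bound sets the WT mean against the lowest signal of any probe well above background on each mutant array, or the probe's own where that is higher. WT was at least 1263-fold higher at shield (adjusted p = 2.59e-08), at least 3318-fold at 1 dpf (6.61e-07) and at least 1042-fold at 2 dpf (3.6e-06). These adjusted p-values are limma's for the readings as they stand, with mutant values not well above background, and do not test the bounds.

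At the other 2 stages 2 of 3 dnmt3bb.2-/- arrays were well above background for this probe, so bounds are given again. The mutant arrays read 2.50, 6.79 and 6.01 at 1-2 cell, the first of them not well above background, against 18.00, 17.99 and 18.06 in WT, which was at least 4825-fold higher (adjusted p = 0.000635). They read 7.38, 5.79 and 4.29 at 5-somite, the last of them not well above background, against 15.46, 15.46 and 15.36 in WT, at least 772-fold higher (adjusted p = 0.000267). Both adjusted p-values are again limma's for the readings themselves and do not test the bounds. On the slides that carried both genotypes no mutant array was well above background. The mutant mean there was 2.50 at 1-2 cell (1 array), 2.47 at shield (3), 1.80 at 1 dpf (1) and 2.29 at 2 dpf (3). The WT arrays of the same slides averaged 18.02 (3 arrays), 14.81 (1), 15.79 (3) and 14.05 (1). Of 23179 probes well above background on all 15 WT arrays, 25 (0.108%), this probe among them, were well above background on at most 4 of the 15 dnmt3bb.2-/- arrays, 4 being the count for A_15_P663091. Of those 25, 9 were named and 7 of the 9 belonged to genes with another probe well above background on all arrays of both genotypes. In dnmt3aa-/- the same count was 28 (0.121%), and A_15_P663091 was not among them.

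In dnmt3aa-/- this probe instead scattered between replicates. It read 12.40, 14.72 and 15.25 at shield (SD 1.52) and 13.01, 13.79 and 15.57 at 5-somite (SD 1.31), against an SD of 0.02 and 0.06 in WT. At both stages the mutant range enclosed the WT values. At 1 dpf the mutant read 15.29, 15.76 and 15.88 and at 2 dpf 14.31, 14.49 and 14.20, both overlapping WT.

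The other 4 dnmt1 probes were called 8 times in 20 comparisons of dnmt3bb.2-/- with WT, where 14.9% to 51.5% of all probes were called, by stage. Of these 4 probes 2 moved in opposite directions at the earliest stages. A_15_P344970 read 12.17, 12.19 and 12.14 in WT at 1-2 cell and 11.66, 11.58 and 11.59 in the mutant, a difference of -0.56 (SE 0.06, adjusted p = 0.000961). At shield it read 9.25, 9.30 and 9.23 in WT and 8.09, 8.08 and 8.12 in the mutant. This was its largest difference, -1.16 (SE 0.04, 2.23-fold lower, adjusted p = 1.3e-05), and within the shared slide it was -1.13. It was also lower at 5-somite (-0.55, adjusted p = 0.00905) and at 1 dpf (-0.44, SE 0.03, adjusted p = 0.000167; -0.47 within the slide), but not past the threshold at 2 dpf (-0.21, 95% interval -0.50 to 0.08). A_15_P632541 went the other way. It read 14.91, 14.83 and 14.84 in WT at 1-2 cell and 16.11, 16.31 and 16.22 in the mutant, and was 1.35 higher (SE 0.08, 2.55-fold, adjusted p = 0.000146), with 1.25 within the shared slide. It was 0.66 higher at shield (SE 0.14, adjusted p = 0.0084) and 0.47 within the slide. By 1 dpf its sign had turned, with 13.91, 13.85 and 13.86 in WT and 13.39, 13.49 and 13.53 in the mutant. The difference was -0.41 (SE 0.05, adjusted p = 0.000902), and -0.49 within the slide. These within-slide differences reuse the same arrays. They set 1 mutant array against 3 WT arrays at 1-2 cell and 1 dpf, and 3 mutant arrays against 1 of WT at shield.

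The other 2 of these 4 dnmt1 probes differed less. A_15_P461830 differed by at most 0.32 in size at any stage and was not called by limma at any (3 of 5 had an unadjusted p under 0.05), with a 95% interval of -0.10 to 0.06 at 1 dpf. Without dnmt3bb.2-/- replicate 3 it passed at shield (-0.26, adjusted p = 0.00947). A_15_P666021 was called once, at shield, 0.26 lower (SE 0.05, adjusted p = 0.00588). With A_15_P663091 included, 3 of the 5 dnmt1 probes were called in 1-2 cell embryos, 4 at shield, 2 at 5-somite, 3 in 1 dpf and 1 in 2 dpf embryos. The shares of all probes called were, in the same order, 31.4%, 51.5%, 35.8%, 46.9% and 14.9%. Leaving out single arrays removed 3 dnmt1 calls: that of A_15_P632541 at shield (any array but WT replicate 1, adjusted p up to 0.031), that of A_15_P666021 at shield (any but dnmt3bb.2-/- replicate 3, up to 0.0239) and that of A_15_P344970 at 5-somite (any but dnmt3bb.2-/- replicate 1, up to 0.0358). At 5-somite the genotypes lay on separate slides, and slide and genotype cannot be told apart.

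For uhrf1, dnmt3bb.2-/- differed from WT mainly at 1 dpf, where 3 of 4 probes were lower, against 24.1% of all probes. A_15_P113230 read 10.05, 10.07 and 10.04 in WT and 9.55, 9.43 and 9.52 in the mutant. The difference was -0.55 (SE 0.04, adjusted p = 0.000168), and -0.50 within the slide, which held 1 mutant array and 3 WT arrays of this stage. A_15_P541062 read 10.01, 10.05 and 10.12 in the mutant, 0.46 below WT (SE 0.06, adjusted p = 0.00147) and 0.51 below within the slide. A_15_P304326 was 0.18 lower (SE 0.03, adjusted p = 0.00305), a call that was lost on leaving out any array but dnmt3bb.2-/- replicate 1 (adjusted p up to 0.014). A_15_P729306 differed by -0.02 to 0.06 at 1 and 2 dpf and was called only at 1-2 cell, where it was 0.52 higher (SE 0.07, adjusted p = 0.00305). That call was lost without any 1 of the WT arrays (adjusted p up to 0.02). A_15_P541062 was 0.19 higher at shield (adjusted p = 0.00841) and 0.34 lower at 5-somite (adjusted p = 0.00703). Leaving out any array removed the first of these calls, and leaving out any but dnmt3bb.2-/- replicate 1 removed the second (adjusted p up to 0.0314 and 0.0284). At 1-2 cell its mutant arrays read 12.04, 11.32 and 11.94, and without replicate 2 the difference rose from 0.45 to 0.67 and passed (adjusted p = 0.000952). At 2 dpf no uhrf1 probe was called by limma, none of the 4 had an unadjusted p under 0.05, and the lowest adjusted p was 0.147.

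Compared directly, the mutants differed in 8 of 25 dnmt1 tests, 5 of them those of A_15_P663091, and in 2 of 20 uhrf1 tests. The mutants shared no slide and no scan day, so neither can be told apart from genotype in these tests. The shares of all probes called were 27.8%, 13.8%, 20.5%, 21.8% and 11.4%, in the order of the stages. At 1-2 cell A_15_P344970 was 1.00 higher in dnmt3aa-/- than in dnmt3bb.2-/- (adjusted p = 0.000855) and A_15_P632541 0.99 lower (adjusted p = 0.00167). At 1 dpf A_15_P344970 was 0.76 higher in dnmt3aa-/- (adjusted p = 0.000599), and the uhrf1 probe A_15_P541062 was 0.78 lower there (adjusted p = 0.000779). The other uhrf1 call was A_15_P304326 at 1-2 cell, 0.40 higher in dnmt3aa-/- (adjusted p = 0.00952). Leaving out any array but dnmt3bb.2-/- replicate 2 removed it (adjusted p up to 0.0516). The call for A_15_P632541 was lost without dnmt3bb.2-/- replicate 3 or dnmt3aa-/- replicate 2 (adjusted p up to 0.0124), and that of A_15_P663091 at 5-somite without replicate 2 of either mutant (up to 0.0137). At shield, without dnmt3aa-/- replicate 1, A_15_P344970 was 1.49 higher in dnmt3aa-/- and passed (adjusted p = 0.00171).

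The difference from WT changed with stage for 5 of the 9 probes in dnmt3aa-/- and 8 of 9 in dnmt3bb.2-/-, by limma's moderated F test of the interaction of genotype and stage. Over all probes these shares were 49.7% and 59.1%. The 8 include A_15_P663091, whose mutant arrays lay at background at 3 stages, so its test sets WT levels against a floor. In dnmt3aa-/- the 5 were all 4 uhrf1 probes and the dnmt1 probe A_15_P632541. In dnmt3bb.2-/- the uhrf1 probe A_15_P304326 was the exception (adjusted p = 0.0498), and it passed without dnmt3bb.2-/- 2 dpf replicate 2 (adjusted p = 0.00709). Both mutants were set against the same WT arrays, so these counts are not independent. In the dnmt3aa-/- test the WT arrays changed scan day at 5-somite and the mutant arrays did not, and the part of scan day was not tested.

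The probes of 1 gene did not always follow each other. Over the 15 group means, which share the same arrays, A_15_P461830 and A_15_P666021 correlated at r = 0.9998, and the 4 dnmt1 probes without A_15_P663091 at 0.84 or more. A_15_P663091 correlated with the others at 0.05 to 0.40. The uhrf1 probes correlated with each other at 0.93 to 0.98. Probe sequences and positions were not used here, so it is not known which transcript region each probe reads.

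Of 15 listed partners of maintenance methylation 11 were on the array, and their WT time courses differed. Each gene of this list and the later lists was represented by 1 probe, that with the highest mean level over the arrays. Other probes of these genes are not described here and may differ, as those of dnmt1 and uhrf1 did. Pcna, the sliding clamp that tethers Dnmt1 to the replication fork, rose by 2.39 log2 from 1-2 cell to shield, by 0.80 to 5-somite and by 0.65 to 1 dpf, and then fell by 2.17. Lig1, the ligase that joins Okazaki fragments and in mammals binds Uhrf1, differed by 0.11 or less at the first 3 steps without being called and fell by 1.86 from 1 to 2 dpf. Hells, the chromatin remodeller needed for methylation of repeats, fell by 1.62, rose by 1.11, and fell by 0.75 and 1.87. Its activator cdca7a fell at 2 steps, with -1.99 from shield to 5-somite and -1.93 from 1 to 2 dpf. The zinc finger gene zbtb24, known in humans to act upstream of CDCA7, fell by 2.44 at the first step only, with 2 of 3 arrays well above background at shield.

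**Figure D4:**
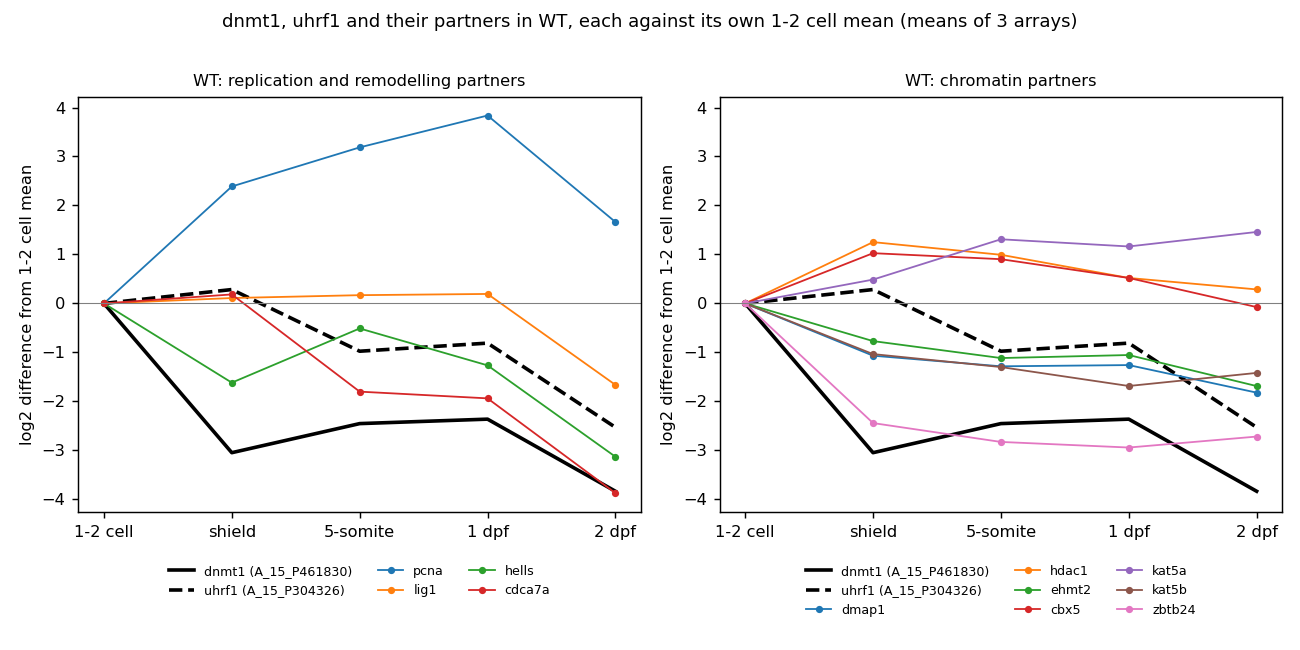
Mean log2 difference from the gene's own 1-2 cell mean in WT (y axis, 3 arrays a stage) at the 5 stages (x axis). Black lines are dnmt1 (solid, A_15_P461830) and uhrf1 (dashed, A_15_P304326), coloured lines the partners. Pcna climbed to 1 dpf, hells dipped at shield, and pcna, lig1, hells and cdca7a all fell from 1 to 2 dpf, as did both members.

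Among the chromatin partners, the Dnmt1-associated deacetylase hdac1 rose by 1.25 from 1-2 cell to shield and fell by 0.26, 0.47 and 0.23 at the following steps. Cbx5, a heterochromatin protein that binds methylated histone H3, rose by 1.03 at the first step and fell by 0.38 and 0.59 at the last 2. The histone methyltransferase gene ehmt2 fell by 0.77, 0.35 and 0.63 at the first, second and last steps, and dmap1, whose product binds Dnmt1 in mammals, fell by 1.07 at the first. The acetyltransferase genes kat5a and kat5b went apart at the first step, by 0.49 and -1.03. Over the 11 partners 4 rose and 5 fell at the first step, 3 and 4 at the second, 1 and 4 at the third, and 2 and 7 at the last. The shares of all probes called at these steps were 84.0%, 78.0%, 69.6% and 60.3%, in order. Those rising were 36.1%, 45.3%, 35.5% and 31.6%, and those falling 47.8%, 32.7%, 34.1% and 28.7%. None of the partner calls changed sign under 75th percentile scaling, quantile normalization or normexp.

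Against WT, dnmt3aa-/- had most partner calls at 1-2 cell (7 of 11) and dnmt3bb.2-/- at shield (6 of 11), where 57.3% and 51.5% of all probes were called. In dnmt3aa-/- at 1-2 cell 5 of 11 were higher, among them pcna (1.23), cbx5 (1.13), ehmt2 (0.67) and hdac1 (0.61), and 2 were lower, hells (-0.56) and kat5b (-0.67). At shield and 5-somite no partner was called by limma in dnmt3aa-/-, where 12.3% and 21.3% of all probes were called. An unadjusted p under 0.05 was reached by 3 and 1 of 11. At 1 dpf pcna was 1.40 lower (adjusted p = 0.00161) while zbtb24 (2 of 3 WT arrays well above background) and cbx5 were 0.98 and 0.52 higher. In dnmt3bb.2-/- pcna was 2.03 higher at 1-2 cell (adjusted p = 0.000243) and 1.24 higher at shield (adjusted p = 0.000183). At shield cdca7a and hells were 0.69 and 0.65 lower. Hells was 0.42 lower at 1 dpf and 0.75 higher at 2 dpf.

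The last fall of dnmt1 and uhrf1 coincided with falls of the genes of DNA replication. From 1 to 2 dpf in WT 37 of 39 replication genes fell and none rose, with a list median of -1.51 against 0.07 for all probes. At this step 60.3% of all probes were called and 28.7% fell. Examples were mcm10 (-1.96), mcm3 (-1.93) and orc6 (-1.92), which encode parts of the origin licensing and firing machinery, and dhfr (-1.91), which encodes the reductase that keeps up folate for thymidylate synthesis. All 11 mitosis and proliferation genes fell as well, by 0.86 to 1.34, including ccnb1 (-1.34), ccna2 (-1.27), plk1 (-1.25) and aurka (-1.23). The part of cell proliferation in the falls of dnmt1 and uhrf1 was not tested.

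At the earlier steps the replication list was mixed in WT. From 1-2 cell to shield 13 rose and 21 fell, with a median of -0.44 against -0.32 for all probes, and from shield to 5-somite 18 rose and 9 fell (median 0.26 against 0.26). Of all probes 36.1% rose and 47.8% fell at the first of these steps, and 45.3% rose and 32.7% fell at the second. The largest rises of the list at the first step were those of mcm6 (9.06), ccne2 (7.88) and mcm3 (7.71). The calls for slbp, cdc6 and fen1 at that step changed sign under another scaling. Of the 11 proliferation genes 1 rose and 9 fell at the first step, and 2 rose and 7 fell at the second, where uhrf1 fell, with ccnb2 at -2.28, ccna2 at -1.96 and ccnb1 at -1.72. In dnmt3aa-/- at 1-2 cell, where the members were higher, 8 of 11 proliferation genes were higher and 1 lower, and 16 of 39 replication genes were higher and 15 lower, against 28.5% of all probes higher and 28.8% lower. In dnmt3bb.2-/- at 1 dpf, where uhrf1 was lower, 1 proliferation gene was higher and 6 were lower, while 12 of 39 replication genes were higher and 5 lower, against 22.8% of all probes higher and 24.1% lower. Their part in the member differences was not tested.

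The genes most like each member were found over the 15 group means by Pearson's r among 12268 named genes, each represented by its best-matching probe. For dnmt1 (A_15_P461830) these were kif4 (0.993), cnpy1 (0.992), haus6 (0.990), parpbp (0.989) and ssna1 (0.986), and the least alike were smad7 (-0.988), lhx5 (-0.977) and ednraa (-0.975). For uhrf1 (A_15_P304326) they were rrm2l (0.988), cdca7a (0.987), smc4 (0.981), slbp (0.980) and smc2 (0.979), and the least alike were abi3a (-0.983), igsf21b (-0.975) and prom1b (-0.969). Several of the uhrf1 neighbours have known roles in the cell cycle: smc2 and smc4 encode condensin subunits and slbp encodes the protein that binds histone mRNA stem-loops. The members were not each other's nearest neighbours. Uhrf1 ranked 3462 for dnmt1 (r = 0.636) and dnmt1 ranked 2360 for uhrf1 (r = 0.70). The group means share arrays and follow the same stages, so these r values are descriptions.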

How the data were processed

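Total RNA of pooled embryos was labelled with Cy3 and hybridised to 45 Agilent arrays, read per the labels with Feature Extraction 12.0.3.1. The authors scaled each array's processed intensity globally to a 2% trimmed mean of 2500, and the deposited table holds these linear intensity values. From it log2 values were taken here, outlier and control spots were left out, and spots of 1 probe were averaged (43603 probes). A probe was tested if well above background on at least 1 array of the groups compared, with at least 2 values in each group. The interaction fits used only probes without missing values. Accessions were named through RefSeq GRCz12tu symbols (27337 probes, 14212 symbols). The arrays carried 2 annotation releases, which gave the member probes the same accessions.

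limma 3.58.1 (R 4.3.3) was fitted per stage for genotypes, per genotype for successive stages and per mutant for the interaction of genotype and stage, p-values being adjusted by Benjamini and Hochberg over all probes tested and called at 0.01, the limit used in the study. With 3 arrays a group, their number limits the precision. The p-values rest on the spread between replicates, pooled over the groups of a fit and moderated by limma with the spread of all probes. Alternatives were 75th percentile, quantile and normexp (offset 50, from the deposited median intensity signals) processing, other filters, all arrays in 1 fit, replicate or slide blocks and leaving out single arrays. The fits were tested on simulated data. Named were all member probes, the partners with values, up to 4 examples of each other list by size of change, and the 5 genes most and 3 least like each member. Members and lists were chosen with earlier results of these data known. Figures were drawn with matplotlib 3.10.9.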

Additional observations from a re-analysis of the deposited data

Results flagged for a closer look

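For 13 of the 18 pairs of probe and mutant, the difference from WT itself differed between the 5 stages, by a moderated F test of the 4 interaction contrasts (adjusted p of at most 0.01, reached by 49.7% of all probes in dnmt3aa-/- and 59.1% in dnmt3bb.2-/-).

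In dnmt3aa-/- this held for all 4 uhrf1 probes and 1 dnmt1 probe. The WT arrays changed scan day at 5-somite while the dnmt3aa-/- arrays were all read on 1 day. Scan day thus cannot be told apart from a change of the difference at that stage. F was 20.5 for the uhrf1 probe A_15_P113230 and 18.6 for A_15_P541062, which read close to or above WT at 1-2 cell and below it at 1 dpf. It was 9.35 for A_15_P729306 and 7.46 for A_15_P304326, both of which were higher than WT at 1-2 cell and differed from it by 0.04 and -0.10 at 1 dpf, uncalled. It was 8.20 for the dnmt1 probe A_15_P632541, 0.36 higher at 1-2 cell and 0.81 lower at 1 dpf. The F of A_15_P304326 missed the threshold under normexp (adjusted p = 0.0356). Of the uncalled dnmt1 probes, A_15_P344970 (F of 2.35) passed without dnmt3aa-/- shield replicate 1 (F of 5.31, adjusted p = 0.00815), A_15_P461830 (3.297) without shield or 2 dpf replicate 3 (6.19 and 5.89) and A_15_P666021 (2.70) without shield replicate 3 (5.24).

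In dnmt3bb.2-/- it held for all 5 dnmt1 probes and 3 uhrf1 probes. The largest F, 51.0, belonged to the dnmt1 probe A_15_P632541, 1.35 higher at 1-2 cell and 0.41 lower at 1 dpf. F was 18.4 for A_15_P344970, 13.3 for A_15_P666021 and 11.3 for A_15_P461830. It was 5.12 for A_15_P663091, a call lost on leaving out 26 of the 30 arrays singly (adjusted p up to 0.0314). The mutant arrays of that probe lay at background at 3 stages, so its F sets WT levels against a floor and is no measure of a change in the mutant. For uhrf1 F was 11.1 for A_15_P729306, 6.87 for A_15_P541062 and 5.59 for A_15_P113230, the last of which was lost without any 1 of 5 arrays of 1 dpf, those of WT and dnmt3bb.2-/- replicates 2 and 3 (adjusted p up to 0.0154). The remaining uhrf1 probe, A_15_P304326, passed without dnmt3bb.2-/- 2 dpf replicate 2, its F moving from 3.12 to 5.38 (adjusted p = 0.00709). WT and dnmt3bb.2-/- arrays of a stage shared a scan day, and those of 5-somite were read on another day than the rest. The part of scan day was not tested.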

How the results depend on the processing

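The stage courses held best. Each step fit used the arrays of all 5 stages of a genotype, while each genotype fit used those of 1 stage. A left-out array or a block costs the smaller fits more, so the counts of calls kept are not like measures. Of the WT steps called, 12 of 16 for dnmt1 and 10 of 11 for uhrf1 passed under every alternative, and in dnmt3aa-/- 7 of 10 and 8 of 8. Genotype calls held less: in dnmt3aa-/- against WT 0 of 5 dnmt1 calls and 2 of 6 uhrf1 calls passed under every alternative, and in dnmt3bb.2-/- 7 of 13 and 1 of 6. For dnmt3aa-/- against WT 11 member tests were called, 7 under normexp, 3 with the replicate number as a block and 7 to 13 on leaving out single arrays. At its stages with several slides 1 was called, and 0 with slide as a random block. No slide held both WT and dnmt3aa-/- arrays, so this block cannot separate slide from genotype. For dnmt3bb.2-/- against WT 19 were called, 10 with all 45 arrays in 1 fit and 9 with the replicate block. For dnmt3aa-/- against dnmt3bb.2-/- 10 were called, 3 with the replicate block and 5 without A_15_P663091, an alternative chosen after seeing the data. Apart from fits on fewer arrays or probes, the cause was not tested. Same-numbered arrays correlated in their deviations at r of -0.15 to 0.32, and not every array correlated best with its own number. This cannot settle whether same-numbered arrays had a shared origin, since each deviation was taken from a mean of 3 arrays.

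Under quantile normalization, uhrf1 A_15_P304326 in WT from 1-2 cell to shield turned from 0.28 to -2e-04, and dnmt1 A_15_P344970 in dnmt3bb.2-/- from 5-somite to 1 dpf from 0.08 to -0.30 (adjusted p = 0.0059). Over all probes, calls in dnmt3aa-/- against WT went from 18598 to 6123 under normexp at 1-2 cell, and from 7565 to 378 with slide as a random block at 5-somite. With the replicate block they went from 4138 to 651 at shield, 7873 to 1073 at 1 dpf and 4806 to 354 at 2 dpf. In dnmt3bb.2-/- the block moved them from 10041 to 3703, 17162 to 11328, 12708 to 7937 and 5754 to 1610 at 1-2 cell, shield, 5-somite and 2 dpf, and the fit of all arrays from 17748 to 8008 at 1 dpf. With all 45 arrays in 1 fit, calls were 12884 at shield and 9286 at 2 dpf in dnmt3aa-/-, and 9137 at 2 dpf in dnmt3bb.2-/-; normexp gave 11971 at 5-somite in dnmt3aa-/-. Between the mutants they went from 9026 to 1196 under normexp at 1-2 cell, and with the block from 4638 to 879, 7287 to 1217, 8297 to 1495 and 4384 to 595 at the later stages. For the dnmt3aa-/- steps normexp moved them from 20277 to 11797, 14370 to 6794 and 10932 to 4799 after shield, with 16912 for the last in the fit of all arrays, and for the dnmt3aa-/- interaction from 20333 to 12636. On leaving out single arrays the widest range was 1934 to 13820, for dnmt3aa-/- against WT at 5-somite.

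The share of called probes that were higher moved under normexp from 46.1% to 28.0% (dnmt3aa-/- against WT, 5-somite), from 49.5% to 33.3% (between the mutants, 5-somite) and from 48.2% to 59.1% (dnmt3bb.2-/- against WT, 1-2 cell). For steps after shield, quantile normalization moved it to between 37.9% and 47.1%, from 49.8% to 59.6%, in all 3 genotypes, and normexp to 62.9% in WT from 1 to 2 dpf.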

Other observations

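Genes of the methyl donor cycle, which makes the S-adenosylmethionine that Dnmt1 uses, were measured through 11 of 12 listed members. In WT 3 of 10 tested rose and 5 fell from 1-2 cell to shield, where 36.1% of all probes rose and 47.8% fell. From shield to 5-somite 6 of 11 rose and 2 fell (45.3% and 32.7% of all probes), from 5-somite to 1 dpf 6 and 1 (35.5% and 34.1%), and from 1 to 2 dpf 2 and 3 (31.6% and 28.7%). The S-adenosylmethionine synthetase gene mat1a was not well above background on any WT array at 1-2 cell or shield, and was on all 3 at 5-somite, where its mean log2 signal score was 13.39. Another synthetase gene of the list, mat2aa, was well above background on all 3 WT arrays at 1-2 cell (mean 16.10) and at shield (mean 15.53).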
